A study of Mus musculus with 8 samples.

Results

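The 10 genes described here encode core parts of endoplasmic reticulum (ER)-associated degradation, or ERAD: the derlins Derl1, Derl2 and Derl3, the mannosidase family Edem1, Edem2 and Edem3, the lectin Os9, and Syvn1, Sel1l and Herpud1 of the HRD1 ubiquitin ligase complex. They were taken by name, as the rows whose Ensembl identifier carries one of these symbols in GENCODE M21, which found all 10 among the 26589 genes of the table. The RNA came from splenic B cells of mice of the IL-10-eGFP Tiger strain, whose cells fluoresce green when they transcribe Il10. The purified B cells were cultured with lipopolysaccharide (LPS), a bacterial ligand of Toll-like receptor 4, at 3 µg/ml for 48 h and were sorted by the reporter into IL-10+ and IL-10- fractions. Both groups thus carried the reporter and received LPS, and no group without LPS was analysed here. Each group gave 4 bulk libraries.

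ERAD removes proteins that fail to fold in the ER. For glycoproteins, EDEM mannosidases trim mannose from the N-glycan, lectins such as OS-9 read the trimmed glycan and hand the protein to SEL1L, and the ligase HRD1 (encoded by Syvn1) helps to move it across the membrane and tags it with ubiquitin, after which the ATPase p97 pulls it into the cytosol for the proteasome. Derlins, membrane proteins related to rhomboid proteases but without protease activity, take part in this transfer. In the B lineage of mice the SEL1L and HRD1 pair is known to degrade the pre-B cell receptor, and in secretory cells several ERAD genes are targets of the unfolded protein response (UPR), the signalling system that reads misfolded protein in the ER.

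The library totals recovered from the deposited values were 27380399 to 29968282 reads, and 935 to 17973 reads stood behind each value of the 10 genes. In every library the recovered reads summed over genes exceeded this total, for example 2.859e+07 against 27380399 in IL-10+ replicate 1, and the reason was not tested. Values are FPKM, reads per kilobase of exon and scaled to such a total, so that levels of different genes can be set side by side per length. Il10, which the sort selected and which is no finding, had a mean of 36.9 FPKM in IL-10+ cells against 3.17 FPKM in IL-10- cells. Replicates 1 and 2 stood apart from replicates 3 and 4 in both groups: the chi-square per degree of freedom between 2 libraries of a group was 8.997 to 26.3 within these pairs of numbers and 36.7 to 82.9 across them. The labels do not say whether a replicate number marks a mouse or a culture, and p-values cover only the spread among these libraries, part of which may be technical. B cell markers were present throughout, with a summed level of 1258 to 1586 FPKM in IL-10+ and 1425 to 1934 FPKM in IL-10- libraries over 7 genes.

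Cells sorted as IL-10+ held more RNA of nearly the whole set. In limma's test on log2(FPKM + 1), adjusted by Benjamini-Hochberg over all 11329 tested genes, 9 of the 10 genes were higher in IL-10+ cells and 0 were lower, and all 10 passed the filter on low values. The remaining gene, Derl2, did not pass the test. Of all tested genes 10.6% were called higher. At an unadjusted p under 0.05 the counts were 10 higher and 0 lower, and the share of all tested genes at that threshold is not given here. On recovered reads limma-voom called 9 higher and 0 lower, where 1228 of all 11321 genes fitted were called higher. The median log2 change of the 10 genes was 1.18, against -0.06 over all tested genes. In 9 of the 10 genes every IL-10+ library lay above every IL-10- library, which held for 12.2% of tested genes. In a bulk library fewer cells of a type and less RNA per cell cannot be told apart.

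**Figure D1:**
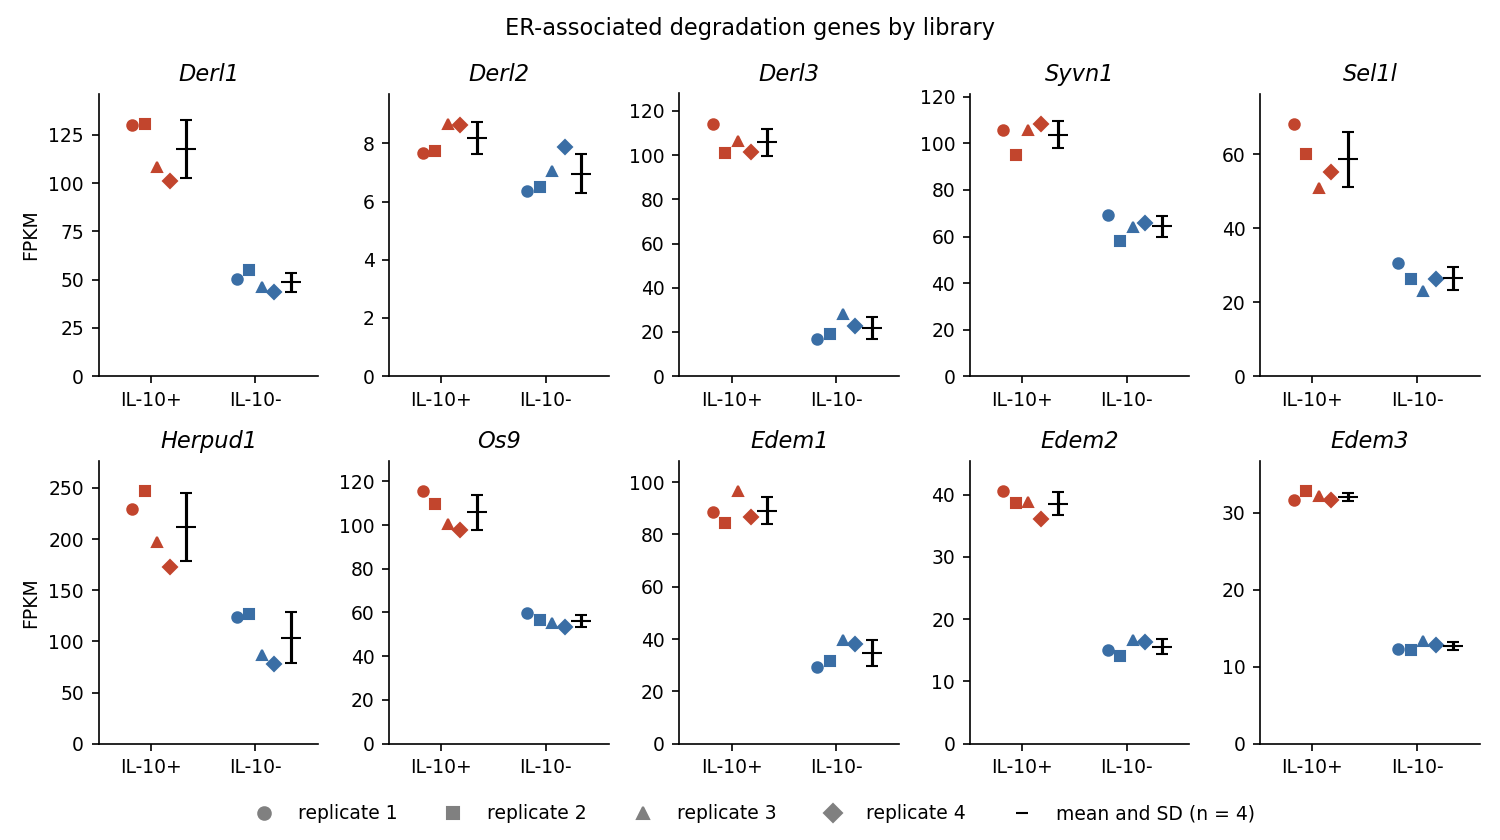
FPKM of the 10 ERAD genes in each library, with IL-10+ libraries in red and IL-10- libraries in blue; marker shapes give the replicate number, and black bars the mean and SD (n = 4). The groups are separate in 9 panels and overlap for Derl2, and each vertical axis starts at 0 with its own range.

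Derl3, Syvn1 and Herpud1 carry, just before their start, a sequence motif of the ER stress response, and these stretches are printed because ERAD genes are known UPR targets and such elements are its best-known sites. The ER stress response element (ERSE), known from human ER chaperone genes as a binding site of ATF6 and XBP1 next to NF-Y, reads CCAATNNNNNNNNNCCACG, and ERSE-II, known from the human HERPUD1 promoter, reads ATTGGNCCACG. RefSeq promoter windows of GRCm38.p6, reaching from 250 bases before to 50 after a start, were searched on both strands for 9 of the 10 genes, and Derl1 was not searched. Each stretch below is the 250 bases before the RefSeq start, 5′ to 3′ on the gene's strand, which is the plus strand in all 3, with the fixed letters of the motif in capitals.
Derl3: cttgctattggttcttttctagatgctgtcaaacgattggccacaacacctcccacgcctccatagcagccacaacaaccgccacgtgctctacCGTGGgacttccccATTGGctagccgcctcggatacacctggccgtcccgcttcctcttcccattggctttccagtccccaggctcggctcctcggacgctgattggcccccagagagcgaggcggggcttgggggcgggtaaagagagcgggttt
Syvn1: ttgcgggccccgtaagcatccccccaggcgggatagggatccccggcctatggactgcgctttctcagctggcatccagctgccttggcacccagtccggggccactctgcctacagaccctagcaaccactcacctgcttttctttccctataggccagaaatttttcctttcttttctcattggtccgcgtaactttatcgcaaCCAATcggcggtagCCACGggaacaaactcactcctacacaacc
Herpud1: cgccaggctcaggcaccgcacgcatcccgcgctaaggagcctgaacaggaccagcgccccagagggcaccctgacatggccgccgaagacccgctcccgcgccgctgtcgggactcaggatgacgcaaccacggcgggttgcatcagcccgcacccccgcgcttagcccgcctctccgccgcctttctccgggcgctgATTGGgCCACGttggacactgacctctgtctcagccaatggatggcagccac

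The Derl3 stretch is chr10:75893148-75893397, and its ERSE lies in reverse orientation 156 to 138 bases before the start. The Syvn1 stretch is chr19:6046326-6046575, with an ERSE in forward orientation at 44 to 26 bases. The Herpud1 stretch is chr8:94386179-94386428, with an ERSE-II at 52 to 42 bases. An ERSE was present in 39 of 32851 promoter windows (0.119%) and an ERSE-II in 12 (0.0365%). Both motifs contain a CCAAT and a CCACG part, and these parts alone are common, in 37.4% and 32.8% of windows. The UPR element TGACGTGG, a binding site of XBP1 and ATF6, was in 0.676% of windows and in none of the windows of these genes. A match describes these letters only.

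The derlins ranged from the largest to the smallest change of the 10 genes. Derl3 had 114, 101, 107 and 101 FPKM in IL-10+ replicates 1 to 4, against 16.8, 19.1, 28.1 and 22.9 FPKM in IL-10- replicates 1 to 4. All IL-10+ values were more than 3 times the highest IL-10- value. Its means were 105.8 ± 6.12 FPKM in IL-10+ cells against 21.7 ± 4.96 FPKM in IL-10- cells (n = 4, SD), a 4.87-fold ratio (log2 change 2.26, SE 0.143, adjusted p = 2.80e-05 in limma), which placed Derl3 at rank 52 of the 11329 tested genes by log2 change. The gene (ENSMUSG00000009092) lies on chromosome 10 at 75893413 to 75895941 of GRCm38, the build of all positions given, and is, in mice, a derlin linked to secretory tissues and a target of the IRE1 and XBP1 branch of the UPR. Within a replicate number the ratio was 6.81 and 5.29 in numbers 1 and 2, and 3.79 and 4.44 in numbers 3 and 4. The mean of IL-10+ libraries was 107.6 FPKM in numbers 1 and 2 and 103.9 FPKM in numbers 3 and 4, with overlap. The mean of IL-10- libraries was 17.9 FPKM in numbers 1 and 2 and 25.5 FPKM in numbers 3 and 4, without overlap.

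Derl1, the widely expressed derlin (ENSMUSG00000022365, chromosome 15, 57869502 to 57892448), had 130.0, 131, 109 and 101 FPKM in IL-10+ libraries, against 50.3, 54.8, 46.0 and 43.4 FPKM in IL-10- libraries. The groups were well apart, and in both of them replicates 1 and 2 were above 3 and 4. The means were 117.6 ± 15.0 FPKM in IL-10+ cells against 48.6 ± 4.99 FPKM in IL-10- cells (n = 4, SD), a 2.42-fold ratio (log2 change 1.25, SE 0.110, adjusted p = 0.000103 in limma).

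Derl2, the remaining derlin (ENSMUSG00000018442, chromosome 11, 71007164 to 71019841), had the lowest FPKM of the 10 genes in both groups. It had 7.67, 7.75, 8.67 and 8.63 FPKM in IL-10+ libraries, against 6.38, 6.51, 7.05 and 7.86 FPKM in IL-10- libraries. The groups overlapped, since IL-10- replicate 4 lay above IL-10+ replicates 1 and 2. The means were 8.18 ± 0.543 FPKM in IL-10+ cells against 6.95 ± 0.675 FPKM in IL-10- cells (n = 4, SD), a ratio of 1.18 (log2 change 0.21, SE 0.0781, adjusted p = 0.0993 in limma), and the two-sided exact permutation p was 0.0857. Within each of the 4 replicate numbers the IL-10+ library was the higher, by 1.10 to 1.23-fold. With the replicate number as a block the adjusted p of Derl2 was 0.00577, so the call depended on the block, and 10 of 10 genes were then higher, where 20.4% of all tested genes were. Of the exon bases of Derl2, 231 (2.9%) overlap Mis12 on the other strand, and the strand setting of the authors' counting was not stated in any source used here.

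Together the derlins summed to 231.6 ± 17.8 FPKM in IL-10+ cells against 77.3 ± 4.08 FPKM in IL-10- cells (n = 4, SD). Derl3 made up 45.8% ± 2.67 of derlin FPKM in IL-10+ cells and 28.0% ± 5.69 in IL-10- cells (SD, n = 4 in this and the next shares). Derl1 made up 50.7% ± 3.07 in IL-10+ cells and 63.0% ± 6.23 in IL-10- cells. Derl2 made up 3.56% ± 0.498 in IL-10+ cells and 9.02% ± 1.10 in IL-10- cells. For each derlin the shares of the groups did not overlap. The exact two-sided permutation p was 0.0286, the smallest that 4 against 4 libraries allow, and 0.0571 after adjustment over 6 shares, which misses 0.05. At this floor the adjusted p depends on the other shares in the list, so the test cannot decide here. With values set per length of the longest CCDS transcript in place of merged exons, the Derl3 share was 53.1% ± 2.43 in IL-10+ and 32.9% ± 5.89 in IL-10- cells.

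The ratio of Derl3 to Derl1 was 0.909 ± 0.105 in IL-10+ libraries against 0.455 ± 0.136 in IL-10- libraries (n = 4, SD). Against Derl2, the ratio of Derl3 was 13.0 ± 1.37 in IL-10+ libraries against 3.11 ± 0.599 in IL-10- libraries. Derl1 to Derl2 stood at 14.5 ± 2.78 in IL-10+ libraries against 7.08 ± 1.31 in IL-10- libraries. In all 3 ratios the groups did not overlap, and the IL-10+ library was the higher in 4 of 4 replicate numbers. The log2 differences were 1.04, 2.07 and 1.03. Each had an exact two-sided permutation p of 0.0286, the smallest that 4 against 4 libraries allow, and 0.0714 after adjustment over 10 ratios. That misses 0.05, but at this floor the adjusted p depends on the other ratios in the list, so the test cannot decide here.

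**Figure D2:**
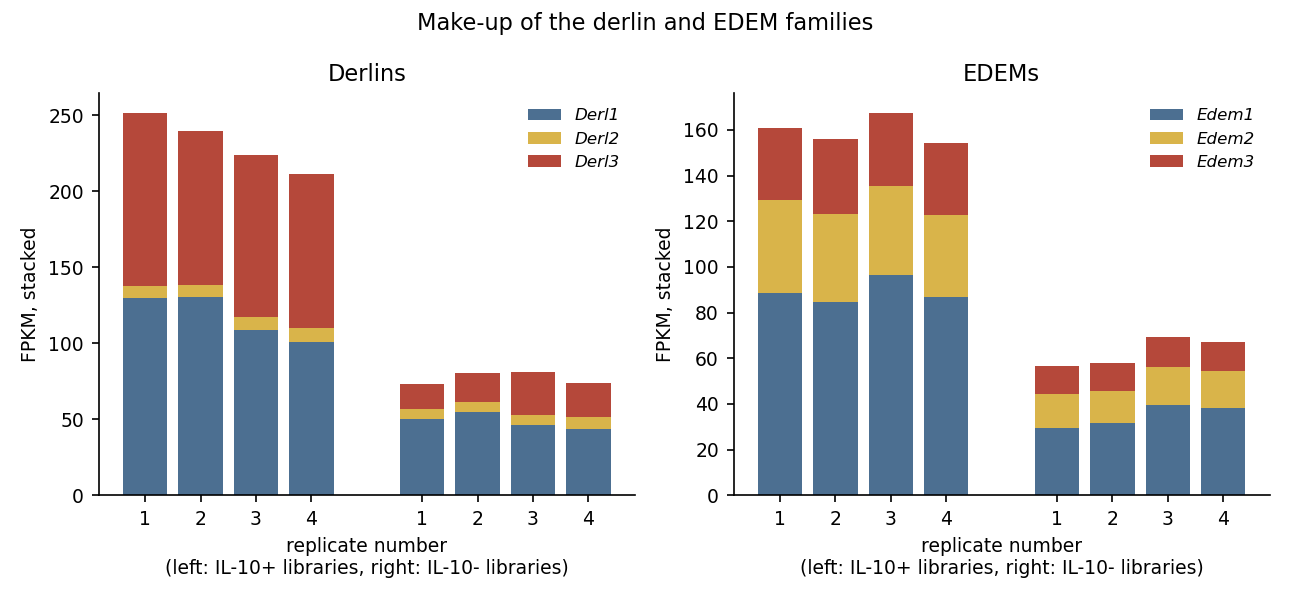
Stacked FPKM of the derlins (left panel) and of the EDEMs (right panel) in each library, IL-10+ libraries left of IL-10- libraries and replicate numbers on the horizontal axis. Derl3 is the part of the derlin bars that differs most, at 45.8% of the IL-10+ and 28.0% of the IL-10- bars on average, while the EDEM bars differ in height and little in make-up.

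All 3 EDEMs were higher in IL-10+ cells, by close factors. Edem1, which trims mannose and was the first of the family tied to glycoprotein disposal (ENSMUSG00000030104, chromosome 6, 108828641 to 108859356), had 88.7, 84.5, 96.5 and 86.8 FPKM in IL-10+ libraries, against 29.4, 31.5, 39.5 and 38.0 FPKM in IL-10- libraries. Edem2, the enzyme of the first trimming step in human cells (ENSMUSG00000038312, chromosome 2, 155701677 to 155729475), had 40.5, 38.6, 38.9 and 36.0 FPKM in IL-10+ libraries, against 15.0, 14.1, 16.7 and 16.4 FPKM in IL-10- libraries. Edem3, which trims further mannoses (ENSMUSG00000043019, chromosome 1, 151755371 to 151822051), had 31.6, 32.8, 32.2 and 31.6 FPKM in IL-10+ libraries, against 12.3, 12.1, 13.4 and 12.8 FPKM in IL-10- libraries. For all 3 the lowest IL-10+ value was above 2 times the highest IL-10- value.

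Edem1 averaged 89.1 ± 5.19 FPKM in IL-10+ cells against 34.6 ± 4.92 FPKM in IL-10- cells (n = 4, SD), a 2.58-fold ratio (log2 change 1.35, SE 0.104, adjusted p = 5.61e-05 in limma). The ratio of means was 2.48 for Edem2 (log2 change 1.26, SE 0.0724, adjusted p = 2.15e-05 in limma) and 2.53 for Edem3 (log2 change 1.27, SE 0.0553, adjusted p = 9.77e-06 in limma). Edem3 varied least of the 10 genes, with a coefficient of variation of 1.70% over IL-10+ and 4.29% over IL-10- libraries. The sum of the 3 was 159.7 ± 5.92 FPKM in IL-10+ cells against 62.8 ± 6.51 FPKM in IL-10- cells (n = 4, SD).

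Within that sum, no EDEM share was shown to differ. Edem1 made up 55.8% ± 1.45 in IL-10+ cells and 54.9% ± 2.33 in IL-10- cells (SD, n = 4; two-sided exact permutation p = 0.543). For Edem2 the share was 24.1% ± 1.01 in IL-10+ cells and 24.8% ± 1.13 in IL-10- cells (exact p = 0.457). For Edem3 it was 20.1% ± 0.805 in IL-10+ cells and 20.3% ± 1.34 in IL-10- cells (exact p = 0.771). The log2 differences of the ratios Edem1 to Edem2, Edem1 to Edem3 and Edem3 to Edem2 were 0.06, 0.04 and 0.03, and within a replicate number they ranged over -0.03 to 0.16, -0.11 to 0.24 and -0.07 to 0.17.

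At the ligase, Syvn1, Sel1l and Herpud1 were higher in IL-10+ cells by ratios of means of 1.61, 2.21 and 2.04. Syvn1, the catalytic subunit that carries the ERSE printed above (ENSMUSG00000024807, chromosome 19, 6046576 to 6053712), had 106, 95.2, 106 and 108 FPKM in IL-10+ libraries, against 69.1, 58.2, 64.1 and 65.9 FPKM in IL-10- libraries. Sel1l, the adaptor that holds HRD1 and receives substrates (ENSMUSG00000020964, chromosome 12, 91806043 to 91849157), had 68.2, 60.0, 50.9 and 55.2 FPKM in IL-10+ libraries, against 30.6, 26.1, 23.0 and 26.4 FPKM in IL-10- libraries. Neither gene overlapped between the groups.

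The means of Syvn1 were 103.8 ± 5.87 FPKM in IL-10+ cells against 64.3 ± 4.61 FPKM in IL-10- cells (n = 4, SD), a 1.61-fold ratio (log2 change 0.68, SE 0.0748, adjusted p = 0.000322 in limma). Those of Sel1l were 58.6 ± 7.41 FPKM in IL-10+ cells against 26.5 ± 3.10 FPKM in IL-10- cells (n = 4, SD), a 2.21-fold ratio (log2 change 1.11, SE 0.112, adjusted p = 0.000201 in limma). The ratio of Sel1l to Syvn1 was 0.566 ± 0.0829 in IL-10+ libraries against 0.412 ± 0.0420 in IL-10- libraries, higher in 4 of 4 replicate numbers and without overlap, with a log2 difference of 0.45. That difference had an exact two-sided permutation p of 0.0286, again the smallest possible, and an adjusted p of 0.0714 over 10 ratios. The adjusted value did not pass, but at this floor it depends on the other ratios, so the test cannot decide here. Of the exon bases of Syvn1, 91 (1.9%) overlap Mrpl49 on the other strand.

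Herpud1, a membrane protein with a ubiquitin-like domain that helps to assemble the HRD1 complex (ENSMUSG00000031770, chromosome 8, 94386438 to 94395377), was the most abundant of the 10 per length in both groups. It had 229.6, 247, 197 and 173 FPKM in IL-10+ libraries, against 124, 126, 86.8 and 77.5 FPKM in IL-10- libraries. The groups did not overlap, but replicates 1 and 2 lay above 3 and 4 on both sides, by 1.29-fold in IL-10+ and 1.52-fold in IL-10- cells. The means were 211.6 ± 33.0 FPKM in IL-10+ cells against 103.6 ± 25.0 FPKM in IL-10- cells (n = 4, SD), a 2.04-fold ratio (log2 change 1.04, SE 0.183, adjusted p = 0.00440 in limma), and within a replicate number the ratio was 1.86 to 2.27. Herpud1 thus had the largest SE of the 10 genes, and with the number as a block its SE was 0.0563.

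Os9, the lectin that passes trimmed glycoproteins to SEL1L (ENSMUSG00000040462, chromosome 10, 127095650 to 127121131), had 115, 109, 100.3 and 97.9 FPKM in IL-10+ libraries, against 59.7, 56.6, 55.1 and 53.3 FPKM in IL-10- libraries. The means were 105.8 ± 8.14 FPKM in IL-10+ cells against 56.1 ± 2.70 FPKM in IL-10- cells (n = 4, SD), a 1.88-fold ratio (log2 change 0.90, SE 0.0736, adjusted p = 7.08e-05 in limma). Erlec1, the other lectin of this step, averaged 10.1 ± 1.91 FPKM in IL-10+ cells against 6.35 ± 1.14 FPKM in IL-10- cells (n = 4, SD; log2 change 0.59, adjusted p = 0.0261 in limma). The ratio of Os9 to Erlec1 was 10.7 ± 1.35 in IL-10+ libraries against 9.01 ± 1.28 in IL-10- libraries, and its log2 had a two-sided exact permutation p of 0.171. Os9 to Sel1l was lower in IL-10+ libraries in 4 of 4 replicate numbers, at 1.82 ± 0.117 in IL-10+ libraries against 2.13 ± 0.195 in IL-10- libraries, with a log2 difference of -0.23, an exact two-sided permutation p of 0.0571 and an adjusted p of 0.114.

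**Figure D3:**
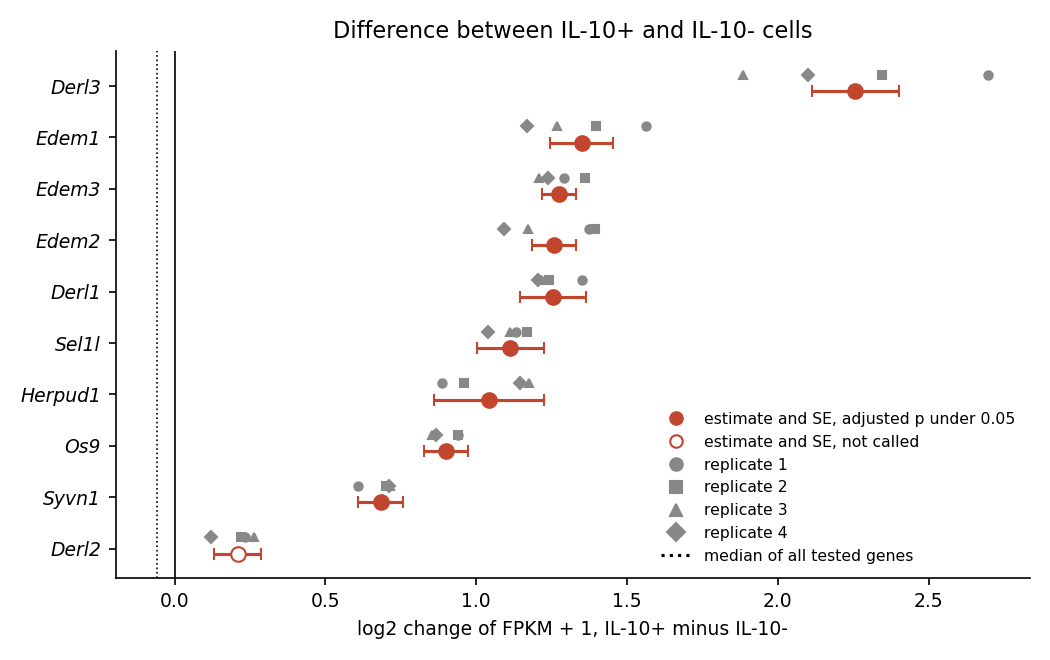
Log2 change of FPKM + 1, IL-10+ minus IL-10-, of the 10 genes in order of size: red points and bars give limma's estimate and SE (filled where the adjusted p is under 0.05), and grey shapes the difference within each replicate number. Derl3 stands at 2.26, 6 genes lie between 1.04 and 1.35, Os9 and Syvn1 are lower at 0.90 and 0.68, and Derl2 is at 0.21 and not called.

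For the 9 genes other than Derl2 the two-sided exact permutation p was 0.0286, the smallest possible here, and the IL-10+ library was the higher in 4 of 4 replicate numbers. Both follow from the lack of overlap between the groups and add nothing to it. Replicates 1 and 2 alone and replicates 3 and 4 alone each kept the same 9 calls. Of all 11329 tested genes, 786 and 1279 were called higher in these sets. In these sets Derl3 had log2 changes of 2.52 and 1.99, Edem1 1.48 and 1.22, Edem2 1.38 and 1.13, and Herpud1 0.92 and 1.16.

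Ordered by mean level in IL-10+ cells, Herpud1 came first, then Derl1, Derl3, Os9, Syvn1 and Edem1, whose neighbours overlapped, then Sel1l, Edem2, Edem3 and Derl2, each apart from the next. In IL-10- cells Herpud1 was again first, then Syvn1, Os9 and Derl1, whose neighbours overlapped, then Edem1, Sel1l and Derl3, likewise overlapping, and then Edem2, Edem3 and Derl2. Derl3 therefore stood 3rd in IL-10+ and 7th in IL-10- cells. Per length of the longest CCDS transcript the order shifted: Derl3 was 2nd at 159.6 ± 9.24 in IL-10+ and 7th at 32.8 ± 7.49 in IL-10- cells, and Derl2, whose merged exons of 8049 bases are far longer than that transcript of 3666 bases, was 10th at 18.0 ± 1.19 in IL-10+ and 9th, above Edem3, at 15.3 ± 1.48 in IL-10- cells.

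Genes around the core were described by lists of ERAD partners. Among cofactors of HRD1 and lectin partners, 7 of 13 tested genes were higher and 0 lower in limma, with a median log2 change of 0.23. At an unadjusted p under 0.05 the counts were 8 and 0, limma-voom gave 7 and 0, and with the replicate block they were 8 and 0. Selenos, a selenoprotein that ties p97 to derlins, averaged 143 ± 7.87 FPKM in IL-10+ cells against 56.7 ± 3.70 FPKM in IL-10- cells (n = 4, SD; log2 change 1.32, SE 0.0720, adjusted p = 1.84e-05 in limma). Ube2j1, the ubiquitin-conjugating enzyme of the HRD1 complex, and Ubxn4, which recruits p97 to the ER, changed by 0.81 and 0.79 on the log2 scale. Across all tested genes 19.7% were called in either direction. With the replicate block 2312 of all 11329 tested genes were higher and 3771 lower. These stand beside the block counts of this and the next lists.

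Of other ER ubiquitin ligases and conjugating enzymes 3 of 16 tested genes were higher and 0 lower in limma, with a median log2 change of 0.02. The counts at an unadjusted p under 0.05 were 5 and 0, limma-voom gave 3 and 0, and with the replicate block 7 were higher and 2 lower. The 3 were the ER ligases Rnf185 (log2 change 0.84), Rnf5 (0.53) and Rnf103 (0.46). Of 15 genes for p97 extraction and deglycosylation 3 were higher and 2 lower (7 and 4 with the block), with a median of 0.10. Ngly1, the cytosolic N-glycanase, and the p97 adaptor Ufd1 changed by 0.56 and 0.28, and the deubiquitinase Atxn3 by -0.34. Vcp, which encodes p97 itself and is named after its value was seen, averaged 104.5 ± 22.7 FPKM in IL-10+ cells against 85.8 ± 20.6 FPKM in IL-10- cells (n = 4, SD), with an adjusted p of 0.385 in limma and 0.000843 with the block.

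In glycan trimming and the calnexin cycle 8 of 11 tested genes were higher and 0 lower in limma, with a median of 0.44. The counts were 9 and 0 at an unadjusted p under 0.05 and in limma-voom, and 10 and 0 with the block. Among the 8 were the oxidoreductase Pdia3 (log2 change 0.82), the ER mannosidase Man1b1 (0.70) and the Golgi mannosidase Man1a (0.55). Of the chaperones and reductases that prepare substrates 13 of 14 were higher and 0 lower in limma, with a median of 1.17. That median is close to the 1.18 of the ERAD genes. The counts were again 13 and 0 at an unadjusted p under 0.05 and in limma-voom, but 13 higher and 1 lower with the block. The 3 with the largest change were Creld2 (1.70), Hsp90b1, which encodes GRP94 (1.55), and the disulfide isomerase Pdia4 (1.38). Among UPR sensors and factors 6 of 11 were higher and 0 lower in limma (7 and 0 at an unadjusted p under 0.05, 6 and 0 in limma-voom, 10 and 0 with the block), with a median of 0.49. Creb3l2, an ER-anchored transcription factor, changed by 2.35, Xbp1 by 2.03 and Ern1, which encodes the sensor IRE1α, by 1.47. Rhomboid genes related to derlins gave 1 higher (Rhbdf1, 0.44) and 1 lower (Rhbdf2, -0.35) of 9 tested, with a median of 0.01, and 2 and 2 with the block.

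**Figure D4:**
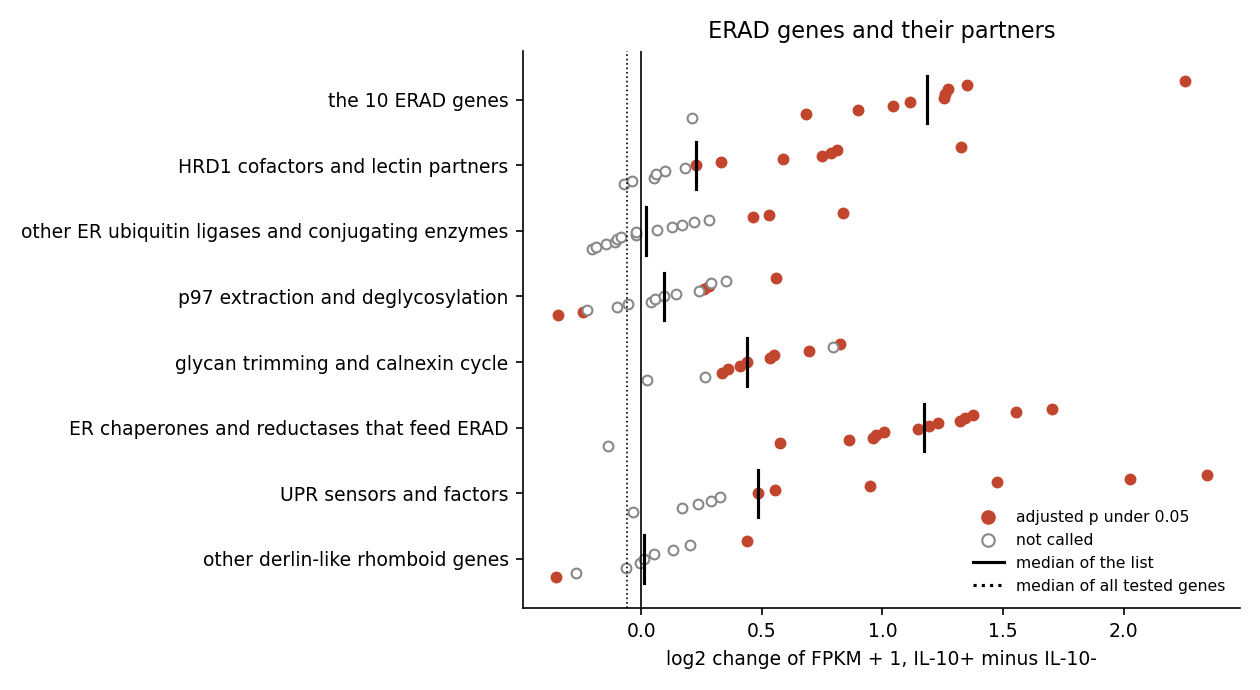
Log2 change of FPKM + 1, IL-10+ minus IL-10-, of every tested gene in the 10 ERAD genes and in 7 partner lists; red points were called at an adjusted p under 0.05, open points were not, black bars mark list medians and the dotted line the median of all tested genes. The ERAD genes and the ER chaperones have medians of 1.18 and 1.17, and other ER ubiquitin ligases and rhomboid genes 0.02 and 0.01.

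Markers of antibody secreting cells differed along with these genes. Of 8 tested genes in the list used here 7 were higher and 1, Cd38, was lower. Of all 11329 tested genes 1196 were higher and 1040 lower. The summed level of the list was 1362 to 1388 FPKM in IL-10+ and 360 to 478 FPKM in IL-10- libraries. Most of it came from Mzb1, at 889 ± 24.6 FPKM in IL-10+ cells against 265 ± 44.7 FPKM in IL-10- cells (n = 4, SD). Xbp1 is in this list and in the UPR list. Of the 7 B cell markers 0 were higher and 3 lower in limma. The counts were 0 and 5 at an unadjusted p under 0.05, and 0 and 3 in limma-voom. With the replicate block they were 1 and 6, where 2312 of all 11329 tested genes were higher and 3771 lower. Of markers of other cell types, all 9 T cell and all 5 natural killer cell markers were below 1 FPKM in every library, as were 4 of 5 neutrophil, 9 of 10 myeloid and 4 of 5 erythroid and platelet markers, though no marker of these lists was at 0 in all 8 libraries. Their highest sums were the myeloid ones, at 7.97 to 12.3 FPKM in IL-10+ and 10.2 to 16.2 FPKM in IL-10- libraries, most of it from Flt3, which had an adjusted p of 0.157 in limma and 0.000659, lower in IL-10+ cells, with the block. The single tested erythroid marker, Hbb-bt, a beta globin, was lower in IL-10+ cells, at 0.699 ± 0.183 FPKM in IL-10+ cells against 2.12 ± 0.427 FPKM in IL-10- cells (n = 4, SD; log2 change -0.87, SE 0.124, adjusted p = 0.00140 in limma). The erythroid and platelet sum was 0.610 to 1.03 FPKM in IL-10+ and 1.78 to 2.82 FPKM in IL-10- libraries. The part of these markers in the differences of the ERAD genes was not tested.

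Among tested genes with an ERSE in a RefSeq window, 8 of 15 were higher and 0 lower in limma (9 and 2 at an unadjusted p under 0.05, 9 and 1 in limma-voom). Without Derl3 and Syvn1 the counts were 6 of 13 and 0. The 6 were Creld2, Hsp90b1, Pdia6, Dnajc3, Hspa5 and Alg12, the first 5 of them folding factors and the last a mannosyltransferase. For ERSE-II, 4 of 9 were higher and 0 lower in limma (4 and 0 at an unadjusted p under 0.05 and in limma-voom), and besides Herpud1 these were Nucb1, Dnajb11 and Krtcap2. Of all 7736 tested genes with a window, 728 were higher and 791 lower. Within the 10 genes Derl3 and Syvn1, both with an ERSE, had log2 changes of 2.26 and 0.68, and Herpud1, with an ERSE-II, 1.04. Of the searched genes with neither motif, the EDEMs had 1.26 to 1.35, Sel1l 1.11, Os9 0.90 and Derl2 0.21. A part of the motifs in these changes was not tested.

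Genes with the most similar pattern were ranked by the root mean square difference of centred log2(FPKM + 1) over the 8 libraries, a description with no test. Nearest to the mean of the 10 genes among 9555 genes were Gmppa at 0.0221, Fndc3b at 0.0550, Qpctl at 0.0749, Cdc25b at 0.0764 and Sec11c at 0.0795. Gmppa, a regulator of GDP-mannose synthesis, averaged 48.3 FPKM in IL-10+ cells against 21.8 FPKM in IL-10- cells. Fndc3b was low, at 2.41 FPKM in IL-10+ cells against 0.472 FPKM in IL-10- cells. At such levels the pseudocount of 1 shrinks the change, so its nearness depends on that setting. Single genes had their own nearest neighbours: Creb3l2 for Derl3 (0.0933), Tmem154 for Derl1 (0.0913), Ranbp2 for Derl2 (0.0189), St6gal1 for Edem1 (0.0628), Sec24a for Edem2 (0.0449), Entpd1 for Sel1l (0.0885), Sec16a for Syvn1 (0.0490), Neil1 for Herpud1 (0.116) and Zbtb38 for Os9 (0.0407). For Edem3 the nearest was Edem2 (0.0555), the closest pair within the set, and the farthest pair was Derl2 and Derl3 (1.04).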

How the data were processed

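Bulk RNA-seq of 8 libraries of sorted mouse B cells, 4 IL-10+ and 4 IL-10-, was grouped by title, and a treatment tag reading untreated was set aside for the culture protocol. Per the labels' protocols RNA was extracted with Trizol and libraries were made with a NEBNext Ultra kit. The authors deposited FPKM values for 26589 genes, and per the submitters' processing notes HISAT2 2.1.0, HTSeq 0.6.0 and build mm10 were used; the annotation, strand setting and handling of shared reads were not stated in any source used here. Positions come from GENCODE M21 (GRCm38, the same build as mm10), which held 26550 of the identifiers.

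The comparison used limma 3.58.1 (R 4.3.3) with a variance trend on log2(FPKM + 1), whose pseudocount of 1 understates changes of low genes. It took in the 11329 genes that reached 1 FPKM in 4 or more libraries, and calls were made where p, adjusted over all of them by Benjamini-Hochberg, was under 0.05. A fold is the ratio of group means in FPKM. Ratios and shares were compared with exact permutation tests over libraries (scipy 1.17.1), adjusted over 10 ratios and over 6 shares. The script was tested on simulated data. Of the values above 0, 93.5% to 93.6% gave whole reads within 0.05 when multiplied by exon length and a library total. These reads served limma-voom, chosen after seeing the data, which called 2272 genes. No 2 libraries were near-copies.

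Libraries sharing a replicate number departed from their group means together, with correlations of 0.71, 0.58, 0.62 and 0.70 over 11329 genes, the highest for each library being with its own number. The numbers were therefore taken to pair the samples in the fit with the number as a block and in differences within a number. This pairing was seen in the data and is absent from the labels. The main limma fit and the printed exact permutation tests did not use it. Their SEs and p-values are thus unpaired, and only those given with the block or over pairs take the pairing into account. The fit with the number as a block is given where it changes the call of a gene whose adjusted p is printed. It is also given for the counts of the partner lists and of the B cell markers, and not for genes with a promoter motif.

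The genes and lists were chosen with earlier results of these data known. Named genes are the 10 ERAD genes, up to 3 called genes with the largest change from each of the 7 partner lists, the 5 nearest genes to the mean pattern and the nearest to each gene (predicted genes and immunoglobulin segments left out). Chosen after their values were seen were Vcp, Flt3, Hbb-bt, Mzb1, Cd38, Erlec1 beside Os9 and the called genes with a promoter motif. Alternatives were pseudocounts, filters, scalings, left-out libraries, pairs of replicate numbers, the block, no variance trend and another gene length.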

Additional observations from a re-analysis of the deposited data

Results flagged for a closer look

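In 52 groups of 4 libraries (the FPKM of each gene, the ratios and the shares, in each group), 1 had a library that stood far from the other 3. The share of EDEM FPKM from Edem2 was 26.5% in IL-10- replicate 1, against 24.0% to 24.4% in the other IL-10- libraries. By chance about 1 in 20 groups would stand out this way. Without that library the Edem2 share still overlapped between IL-10+ and IL-10- cells.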

How the results depend on the processing

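Each gene's log2 change was recomputed under 21 alternatives. The 9 called genes stayed higher and called in all of them, with 9 genes called in every unblocked fit. The largest adjusted p among them in limma was 0.0406, for Syvn1 in replicates 1 and 2 only. Derl2 was called only with the replicate block: its log2 change was 0.21 with the block (adjusted p = 0.00577), 0.24 with the block and median-of-ratios scaling, and 0.24 with the block and scaling without immunoglobulin and mitochondrial genes, and over all alternatives its adjusted p was 0.00435 to 0.221. The number of all tested genes called, 2236, was 1106 in replicates 1 and 2 only, 6083 with the replicate block, 5724 with the block and median-of-ratios scaling, and 5666 with the block and scaling without immunoglobulin and mitochondrial genes. With the block, called genes were 9 instead of 3 of 16 among other ER ubiquitin ligases and 11 instead of 5 of 15 for p97 extraction. They were 10 instead of 6 of 11 for the UPR and 4 instead of 2 of 9 for rhomboid genes. These counts stand beside 6083 instead of 2236 of all 11329 tested genes, and the cause was not tested. Ratios and shares stayed on the same side of the threshold in all alternatives, but a test over 3 against 4 libraries cannot go below 0.0571, or over 4 pairs below 0.125, so these say nothing about their stability. Another gene length shifts levels and shares between genes, not the change of a gene. Derl2 had the lowest FPKM, with 1437 to 2015 reads, while the fewest reads behind a value were 935, for Derl3 in IL-10- replicate 1.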
